A study of Homo sapiens with 8 samples.

Results

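The transcriptional response of control MCF10A-Hras cells to ionizing radiation (IR) was measured 12 h after exposure to 5 Gy of X-rays. MCF10A is a line of human mammary epithelial cells that does not form tumours, and these cells carry the H-Ras oncogene, which transforms them. The comparison uses 4 of the 8 libraries of the series: 2 of untreated control (WT) cells and 2 of irradiated control cells, labelled A and B in each group. The remaining 4 libraries are from RBM6-KO1 cells, a knockout clone of the same line, with and without the same treatment. All cells carried the H-Ras transgene and were grown with EGF, insulin, hydrocortisone, cholera toxin and horse serum, so both groups share an active growth-factor background. Libraries were made with a kit that selects mRNA, and raw counts per gene were deposited. The libraries are described as biological replicates of cultures of 1 cell line, so p-values measure the spread between cultures of that line. Of 58233 genes in the table, 15412 had enough counts to be tested.

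IR breaks both strands of DNA. The breaks activate the ATM and ATR kinases, which phosphorylate CHEK2, CHEK1 and many further proteins. The signal induces effector genes of cell cycle arrest, DNA repair and cell death, and genes that limit the response. One of them, p21, encoded by CDKN1A, inhibits cyclin-dependent kinases, and the repressor complex DREAM then occupies the promoters of late cell cycle genes through the cell cycle genes homology region (CHR), a short DNA element. CDKN1A, GDF15 and BTG2 are long known to be induced by DNA damage and serve as markers of the response.

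All 3 marker genes rose. CDKN1A (chr6:36676460-36687337) had 475 and 453 CPM (counts scaled to the normalized size of the library) in the untreated libraries and 1731 and 1505 CPM after IR. GDF15 (chr19:18374731-18389176), which encodes a secreted stress cytokine, went from 60.9 and 67.8 CPM to 409 and 382 CPM. BTG2 (chr1:203305491-203309602), which encodes an antiproliferative cofactor of mRNA deadenylation, went from 23.4 and 27.5 CPM to 109.9 and 96.8 CPM. In each case both irradiated libraries lay far above both untreated ones. On the log2 scale BTG2 changed by 2.02 ± 0.18 (log2 fold change ± SE, edgeR adjusted p = 0.000391), and other changes written as a value ± SE are on that scale. Adjusted p-values are those of the edgeR quasi-likelihood test, corrected over all genes tested by the method of Benjamini and Hochberg.

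A gene was called when its adjusted p was under 0.05 and its change at least 2-fold. In all, 553 genes were called, 3.59% of those tested. Higher genes made up 259 of them (1.68% of genes tested) and lower genes 294 (1.91%). Most changes were modest: 190 of the higher and 207 of the lower genes changed by 2- to 4-fold, and 16 and 21 by 8-fold or more. The median log2 fold change over all genes was 0.02, and the median size of a change, in either direction, was 0.33. DESeq2's Wald test gave 253 higher and 172 lower genes, so that 59.5% of its calls were higher against 46.8% here. The number of calls depended on single libraries, with 287 without replicate B of the untreated cells and 1406 without replicate A of the irradiated cells.

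**Figure D1:**
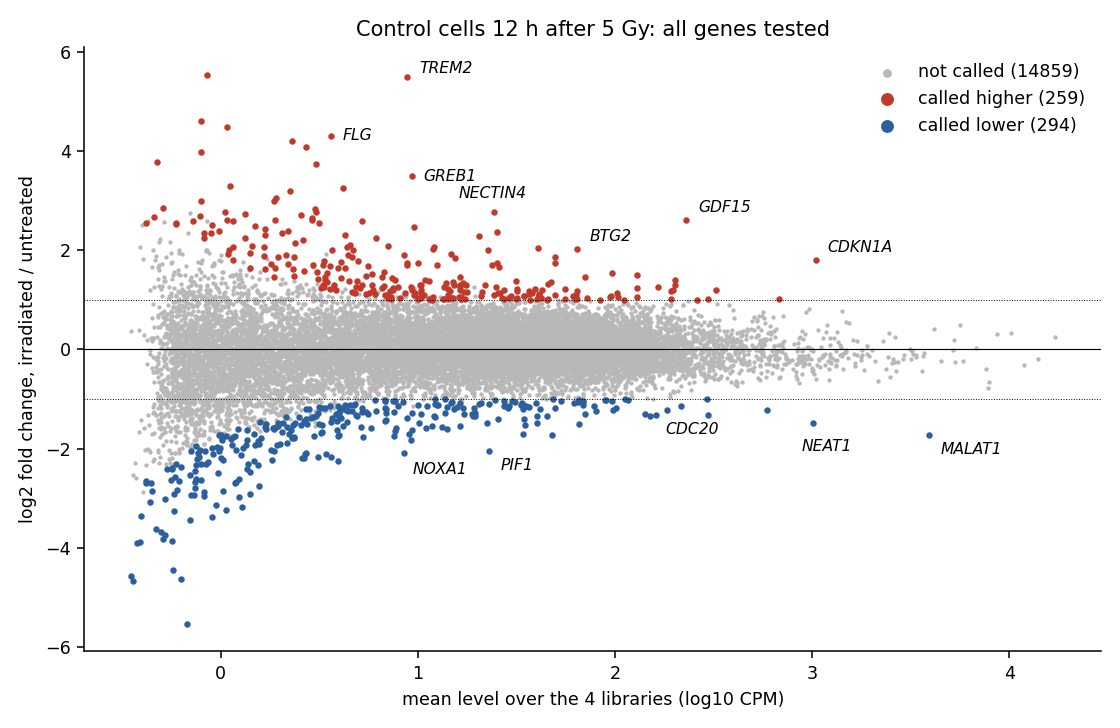
Log2 fold change after IR (vertical axis) against the mean level over the 4 control libraries (horizontal axis, log10 CPM), 1 point a gene, for the 15412 genes tested. Red points mark the 259 genes called higher and blue points the 294 called lower, and dotted lines mark a 2-fold change. GDF15, CDKN1A, MALAT1 and NEAT1 stand out among highly expressed genes, while most lower calls sit at low levels.

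The 4 libraries held 15745769 to 29832009 counts on genes, the largest being replicate B of the irradiated cells, and a count of 0 allowed up to 0.101 to 0.191 CPM. Pearson's r between replicates, across genes, which are not independent replicates, was 0.987 in untreated and 0.983 in irradiated cells. Log2 fold changes rose with transcript length (Spearman's rho = 0.33 across 15309 genes) and fell with GC content (rho = -0.26). Among protein-coding genes the median transcript length was 4984 bases for the 236 called higher, 2700 bases for the 140 called lower and 3930 bases for all 12405 tested, and the median GC content was 47.0%, 53.7% and 47.9%. The part of length and GC content in single results was not tested, and values with both trends removed are given for some genes. Of 149 genes examined by name, 13 lost their call and 9 gained one with both trends removed. Those that lost it were FAS, E2F7, TIGAR, ASCC3, OAS3, JAG1, CDH1, ITGA2, ITGB1, S100A8, MVD, S100P and SLC30A1. Those that gained one were CLSPN, INHBA, CCNG1, MKI67, TOP2A, TAP1, KLF6, SRSF11 and CSF1R. The keratin gene KRT5, a basal epithelial marker, had 1087 to 1634 CPM in the 4 libraries, and HRAS was detected in all of them. KRT14, another basal keratin gene, went from 43.0 and 63.6 CPM to 29.5 and 27.65 CPM. It passed the adjusted p but not the 2-fold limit (log2 fold change -0.90, edgeR adjusted p = 0.0359). The log2 fold change of KRT14 was -1.175 without replicate A of the untreated cells. Of 13 leukocyte markers, 6 had no count in any control library, among them CD3E, LYZ and TYROBP. Others were detected, with CD14 at 12.0 to 19.1 CPM and CSF1R at 1.95 to 7.17 CPM. The fibroblast collagen genes COL1A2 and COL3A1 had at most 1 count. The fibroblast markers DCN and FAP were detected, at 67.3 to 94.5 CPM and 5.53 to 12.2 CPM. Of the endothelial markers KDR had 3.52 to 9.98 CPM and PECAM1 1.1 to 2.4 CPM.

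Promoter sequences were examined for elements of late cell cycle genes, in windows from 250 bases before to 50 bases after the RefSeq start (GRCh38.p14). The CHR was searched as TTTGAA on both strands. It was present in 29 of the 45 promoters found for a list of 51 G2/M and mitosis genes (64.4%), against 9.63% of the promoters of protein-coding genes tested and 15.4% of all 27305 promoters. Of the 8 promoters found for genes of this list that fell, 6 held it. The CCAAT box, which NF-Y binds and which can accompany a CHR, was searched as CCAAT on both strands. It was in 34 of the 45 (75.6%), against 36.6% for protein-coding genes tested and 35.7% for all promoters. Both shares are properties of the listed promoters and hold whether or not a gene changed. The promoters of PIF1 (chr15:64825598-64825897, minus strand), CDC20 (chr1:43358731-43359030, plus strand) and PLK1 (chr16:23678639-23678938, plus strand) are shown because these are the 3 G2/M genes with the smallest p-values. Capitals mark each match to the CHR, which ends 15 bases before the start in PIF1, 60 bases before it in CDC20, where an inverted copy lies further upstream, and 24 bases before it in PLK1.
PIF1: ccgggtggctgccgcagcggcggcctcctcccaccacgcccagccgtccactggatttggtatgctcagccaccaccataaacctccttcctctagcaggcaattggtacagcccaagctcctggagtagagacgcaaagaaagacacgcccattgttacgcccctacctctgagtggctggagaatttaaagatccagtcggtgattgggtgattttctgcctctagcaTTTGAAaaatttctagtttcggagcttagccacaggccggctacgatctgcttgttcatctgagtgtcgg
CDC20: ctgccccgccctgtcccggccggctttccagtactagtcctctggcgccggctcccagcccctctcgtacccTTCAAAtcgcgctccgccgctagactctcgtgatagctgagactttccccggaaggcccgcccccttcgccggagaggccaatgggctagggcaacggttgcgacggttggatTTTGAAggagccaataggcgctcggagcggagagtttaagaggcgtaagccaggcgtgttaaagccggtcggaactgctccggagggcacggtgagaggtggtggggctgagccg
PLK1: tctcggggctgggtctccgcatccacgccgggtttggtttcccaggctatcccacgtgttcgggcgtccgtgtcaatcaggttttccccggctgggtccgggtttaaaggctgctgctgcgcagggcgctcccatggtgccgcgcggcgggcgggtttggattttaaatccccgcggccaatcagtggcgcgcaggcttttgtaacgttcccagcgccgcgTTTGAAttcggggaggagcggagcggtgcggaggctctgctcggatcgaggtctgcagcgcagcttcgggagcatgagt

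Genes that regulate the damage response or feed back on it were among those that rose. Of 12 tested, 4 rose, against 1.68% of all genes tested, and none fell, and the median log2 fold change of the list was 0.64. MDM2, a ubiquitin ligase that limits the response, went from 119.8 and 99.9 CPM to 249 and 333 CPM, or 1.41 ± 0.19 (SE, edgeR adjusted p = 0.00388). TP53INP1, which acts in stress and autophagy, went from 5.47 and 6.83 CPM to 17.8 and 28.7 CPM. The transcription factor gene TP73 was low throughout, at 1.30 and 1.63 CPM before and 5.41 and 6.33 CPM after IR. PPM1D, the phosphatase that dephosphorylates ATM substrates, had a change of 1.27 on the log2 scale (edgeR adjusted p = 0.0150). Its adjusted p was 0.0722 without replicate A of the untreated cells and 0.05004 without replicate B.

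Among damage effector genes of arrest and growth control, 6 of 12 rose, against 1.68% of all genes tested. None fell, and the median log2 fold change was 0.96. Besides the 3 markers the genes that rose were PLK2, SESN1 and E2F7. PLK2, a polo-like kinase of the centriole cycle and the stress response, went from 14.97 and 16.6 CPM to 64.5 and 65.6 CPM, or 2.04 ± 0.19 (SE, edgeR adjusted p = 0.000488). SESN1, an inhibitor of mTORC1 signalling, went from 15.9 and 18.9 CPM to 44.3 and 46.5 CPM. The repressor gene E2F7 went from 11.3 and 10.1 CPM to 17.4 and 30.1 CPM, and its log2 fold change fell from 1.17 to 0.70 without replicate B of the irradiated cells (edgeR adjusted p = 0.0889). It also lost its call without either untreated library (adjusted p = 0.0596 without replicate A and 0.131 without replicate B) and with length and GC trends removed (log2 fold change 0.90). GADD45A, which acts in arrest and repair, passed the adjusted p alone, with a log2 fold change of 0.66.

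The effector genes of DNA repair and metabolism were the damage effector list with the highest share of called genes. All 14 tested had a log2 fold change above 0, with a median of 1.07. Of them 9 rose, against 1.68% of all genes tested. SPATA18, a mitochondrial quality control gene, went from 13.3 and 9.97 CPM to 34.4 and 43.4 CPM (1.74 ± 0.23, log2 fold change ± SE). POLH, the translesion polymerase that bypasses UV lesions, went from 25.5 and 26.9 CPM to 59.0 and 71.2 CPM. FDXR, mitochondrial ferredoxin reductase, went from 37.0 and 38.3 CPM to 126 and 81.5 CPM. The ribonucleotide reductase subunit gene RRM2B, which supplies nucleotides for repair, went from 60.5 and 38.3 CPM to 106.9 and 181 CPM. All 4 lay above both untreated values in both irradiated libraries, which the choice of genes required of all but RRM2B. The log2 fold change was 1.55 for RRM2B and 1.46 for FDXR. The nucleotide excision repair genes DDB2 and XPC had log2 fold changes of 1.07 and 1.14, TIGAR, a regulator of glycolysis, 1.03, the helicase gene ASCC3 1.08 and the ceramidase gene ACER2 2.38. Each of these 5 lost its call in at least 1 refit without a library, DDB2 without replicate A of the untreated cells. XPC and TIGAR lost theirs without either untreated library, and ACER2 without replicate B of the irradiated cells. ASCC3 had log2 fold changes of 0.77 without replicate B of the untreated and 0.82 without replicate B of the irradiated cells. With length and GC trends removed TIGAR was at 0.75 and ASCC3 at 0.83.

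Of 16 damage effector genes of cell death tested, 2 rose, against 1.68% of all genes tested. None fell, and the median log2 fold change was 0.42. TP53I3, a quinone oxidoreductase gene, went from 37.5 and 40.4 CPM to 102.5 and 74.7 CPM. The death receptor gene FAS went from 22.7 and 19.4 CPM to 37.9 and 47.9 CPM, a change of 1.03 on the log2 scale (edgeR adjusted p = 0.0202). FAS overlaps ACTA2 on the opposite strand, which also rose, and without knowledge of strand in the counting their reads cannot be assigned with certainty. Both calls were at the edge of 2-fold: TP53I3 had a log2 fold change of 0.96 without replicate A of the irradiated cells, and FAS 0.85 without replicate B of the irradiated cells and 0.80 with length and GC trends removed. FAS also missed the threshold without either untreated library (edgeR adjusted p = 0.0591 and 0.193). The mitochondrial apoptosis genes BAX, BBC3 and PMAIP1 did not pass: their log2 fold changes were 0.39, 0.45 and 0.59 (edgeR adjusted p = 0.188, 0.210 and 0.232).

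**Figure D2:**
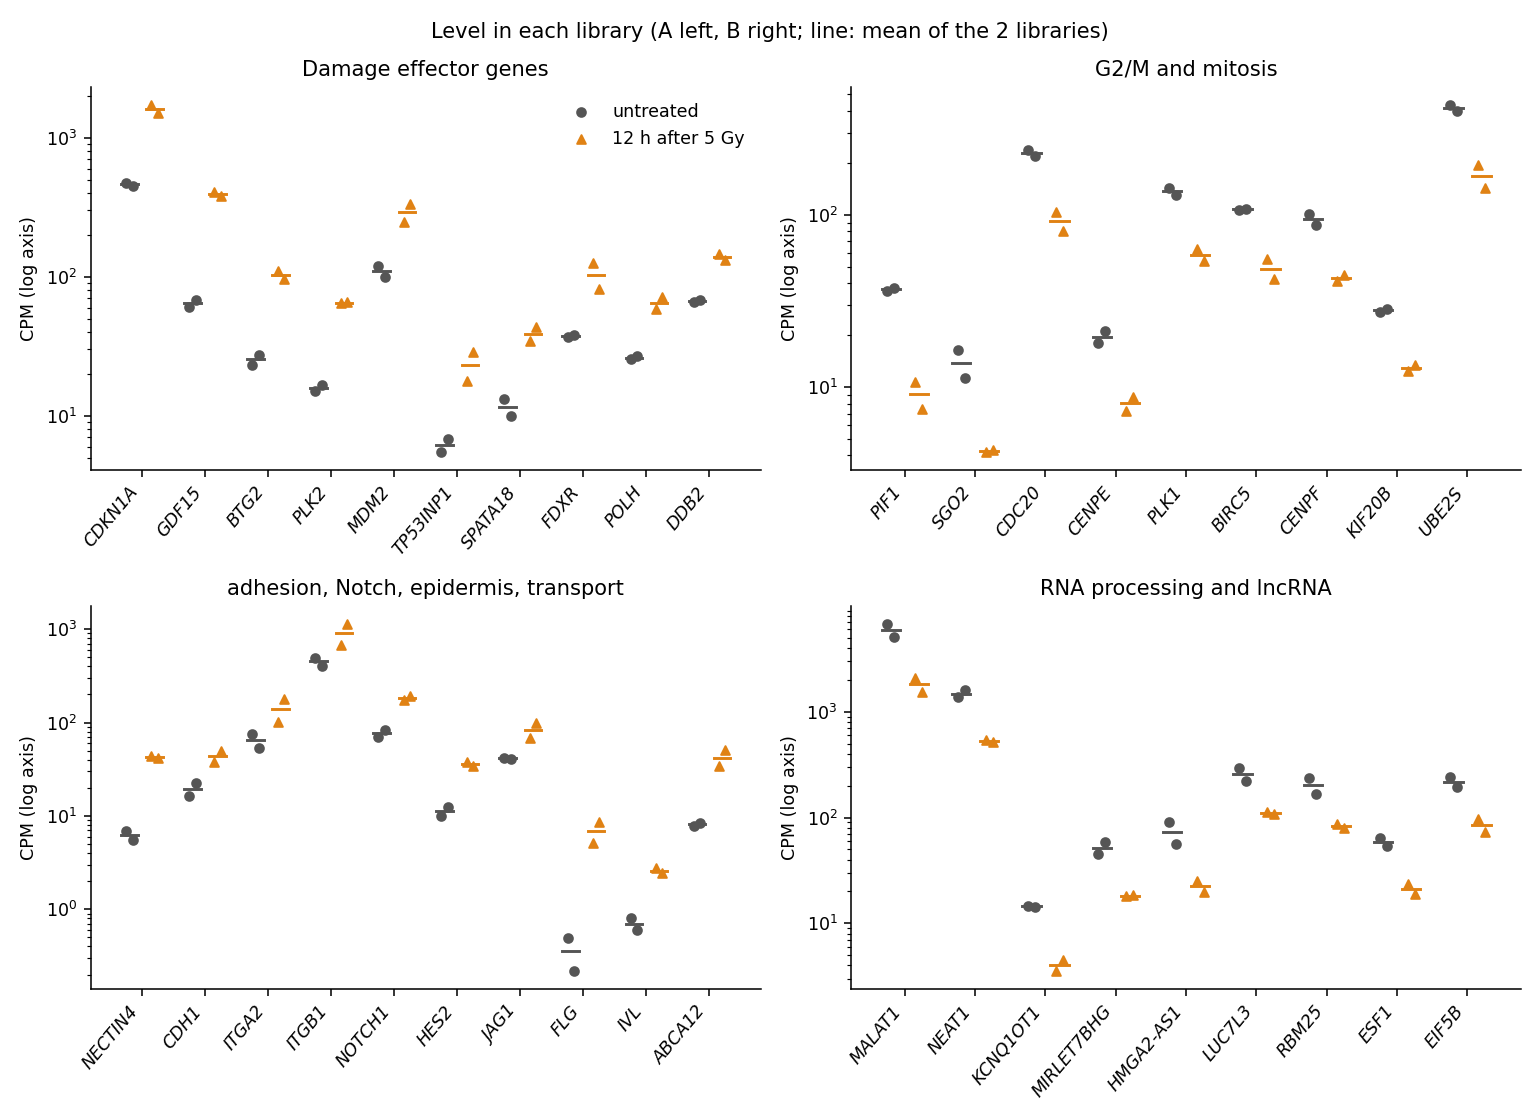
Level of selected genes in each control library, in CPM on a log axis: grey circles are the 2 untreated libraries, orange triangles the 2 irradiated ones, and each short line is the mean of the 2. For every gene drawn, both irradiated libraries lie on the same side of both untreated ones. The rule by which called genes were named required this. Damage effector genes such as GDF15 (60.9 and 67.8 to 409 and 382 CPM) lie above and mitotic and lncRNA genes below.

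Among 51 genes of G2 and mitosis, 48 had a log2 fold change below 0, 9 fell (1.91% of all genes were called lower) and none rose, with a median of -0.63. The fall was small for most members: a further 9 passed the adjusted p alone, with changes under 2-fold. In bulk RNA, fewer cells in G2 and mitosis and less of each RNA per such cell cannot be told apart. CDC20, the activator of the anaphase-promoting complex, went from 239 and 219.9 CPM to 103 and 81.0 CPM, or -1.32 ± 0.17 (SE, edgeR adjusted p = 0.00365). PLK1, the kinase of mitotic entry and spindle assembly, went from 143 and 130.4 CPM to 62.8 and 54.2 CPM. PIF1, a DNA helicase, went from 36.3 and 37.5 CPM to 10.6 and 7.46 CPM, the largest fall of the list at -2.04.

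The other 6 that fell are proteins of the kinetochore, spindle and cytokinesis. CENPF, a kinetochore protein, went from 100.7 and 87.2 CPM to 41.4 and 44.6 CPM. SGO2, which protects centromeric cohesion, went from 16.5 and 11.2 CPM to 4.17 and 4.30 CPM (log2 fold change -1.70). BIRC5, or survivin, of the chromosomal passenger complex, had a log2 fold change of -1.15, and the kinesins CENPE and KIF20B had -1.27 and -1.11. ASPM, a spindle pole protein, had 61.6 and 46.4 CPM before and 17.3 and 33.0 CPM after IR, so that its irradiated libraries differed by more than the other genes' did. Its log2 fold change was -0.69 without replicate A of the irradiated cells, and its adjusted p was 0.131 without replicate A of the untreated cells. BIRC5 was at -0.97 without replicate B of the irradiated cells, and CENPE and KIF20B did not pass without replicate B of the untreated cells (edgeR adjusted p = 0.0698 and 0.0934). The cyclin gene CCNB1, the kinase gene AURKB and the proliferation genes MKI67 and TOP2A passed the adjusted p alone, with log2 fold changes of -0.83, -0.97, -0.78 and -0.84. FOXM1, the transcription factor of this programme, had 62.6 and 61.6 CPM before and 54.6 and 49.7 CPM after IR (log2 fold change -0.25, edgeR adjusted p = 0.366). UBE2S, an E2 enzyme of the anaphase-promoting complex that was not on the list, went from 436 and 403 CPM to 194 and 144 CPM. SAPCD2, a spindle orientation gene, also fell, with a log2 fold change of -1.54.

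Genes of the earlier cell cycle and of damage signalling were called at about the share of all genes or not at all. Of 42 genes of G1/S and DNA replication, 1 fell (2.38%, against 1.91% of all genes) and none rose, and the median was 0.14. That gene was E2F2, a cell cycle activator, which went from 5.03 and 4.07 CPM to 1.76 and 1.07 CPM (log2 fold change -1.74, edgeR adjusted p = 0.0208). E2F1 passed the adjusted p alone at -0.95. None of 29 genes of double-strand break repair and none of 18 of damage signalling and the checkpoint kinases was called by edgeR or by DESeq2, with 4 of each list at an unadjusted edgeR p under 0.05, which 3918 of all 15412 genes tested had (25.4%). In the repair list RAD51C and PRKDC, of homologous recombination and end joining, passed the adjusted p alone, with log2 fold changes of 0.80 and 0.81. In the signalling list the smallest p-value belonged to CLSPN, the mediator of CHEK1 activation, at -0.90 (edgeR adjusted p = 0.0571), which was -1.12 without replicate A of the irradiated cells (adjusted p = 0.000261).

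Of 44 replication-dependent histone genes in the table, 14 were tested and 2 rose, against 1.68% of all genes tested. The mRNAs of these genes mostly lack a poly(A) tail, and the part of mRNA selection in their low counts was not tested. H2BC5 rose from 1.43 and 2.22 CPM to 6.26 and 6.30 CPM, and H2AC6 from 4.10 and 6.78 CPM to 12.0 and 14.1 CPM. Both calls were lost without replicate A of the untreated cells (edgeR adjusted p = 0.0511 and 0.203), and with length and GC trends removed 4 of the 14 were called higher. Histone genes of a cluster resemble each other closely, so their reads may be shared.

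Outside the damage effectors and mitosis, the lists with 3 or more called members were those of adhesion, Notch and WNT signalling, epidermal differentiation, transport and nuclear RNAs. A further 15 lists had 1 or 2 called members and 15 had none. These counts depend on the size of each list, and 1.68% of all genes tested were called higher and 1.91% lower. Of all genes called higher, 52 were on at least 1 of the 40 gene lists and 21 of those on the 4 damage effector lists, leaving 207 on none. Among lower genes 19 were on a list, 9 of them for mitosis, and 275 on none. The plot of listed genes by function gives the spread of each.

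Of 33 adhesion genes, 5 rose, against 1.68% of all genes tested, and none fell, with a median of 0.49. NECTIN4, an immunoglobulin-like molecule of adherens junctions (chr1:161070998-161089558), went from 6.83 and 5.53 CPM to 43.5 and 41.4 CPM, with replicates close to each other in both groups. CDH1, or E-cadherin, went from 16.4 and 22.4 CPM to 38.3 and 49.7 CPM, or 1.18 ± 0.23 (SE, edgeR adjusted p = 0.0162). The integrin subunits ITGA2 and ITGB1, which together form a collagen receptor, went from 74.7 and 53.8 CPM to 101 and 181 CPM and from 495 and 407 CPM to 677 and 1144 CPM. The fifth was the tight junction gene CLDN1, with a log2 fold change of 1.20. The desmosomal cadherins DSC3 and DSG3 passed the adjusted p alone, at 0.97 and 0.77. Apart from NECTIN4 this group leaned on replicate B of the irradiated cells. Without that library 1 of the 5 was called, and the log2 fold change was 0.97 for CDH1, 0.65 for ITGA2, 0.58 for ITGB1 and 0.76 for CLDN1. Without replicate B of the untreated cells 2 were called, and without replicate A the adjusted p of CDH1 was 0.126 (edgeR). Removing length and GC trends left 2 calls, with ITGA2 at 0.84 and ITGB1 at 0.77.

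Of 27 Notch and WNT genes, 4 rose, against 1.68% of all genes tested, and none fell. HES2, a transcriptional repressor of the hairy and enhancer of split family, went from 10.0 and 12.4 CPM to 38.0 and 34.6 CPM, or 1.70 ± 0.22 (SE, edgeR adjusted p = 0.00365). The receptor gene NOTCH1 went from 70.4 and 83.8 CPM to 173 and 191 CPM. The ligand gene JAG1 went from 41.9 and 40.6 CPM to 68.6 and 98.7 CPM, and DKK1, a secreted WNT antagonist, from 128 and 126 CPM to 218 and 294 CPM. HES2 and NOTCH1 kept their calls in every refit without a library. JAG1 and DKK1 did not, with log2 fold changes of 0.73 and 0.77 without replicate B of the irradiated cells and adjusted p of 0.0582 and 0.0568 (edgeR) without replicate A of the untreated cells. The count of called genes of this list ran from 2, without either untreated library or replicate B of the irradiated cells, to 7 without replicate A of the irradiated cells.

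Genes of the late epidermal programme were near the limit of detection before IR. FLG, or filaggrin, which bundles keratin in the cornified layer, had 8 and 4 counts without and 79 and 267 with IR. In CPM that was 0.497 and 0.217 against 5.15 and 8.62, or 4.30 ± 0.46 (SE, edgeR adjusted p = 0.00118). Its antisense transcript FLG-AS1 went from 0.497 and 0.379 CPM to 4.04 and 4.01 CPM, and reads of the pair cannot be told apart here. IVL, or involucrin, of the cornified envelope, went from 0.808 and 0.596 CPM to 2.74 and 2.46 CPM. GRHL3, a transcription factor of epidermal barrier formation, went from 1.49 and 1.90 CPM to 4.82 and 6.04 CPM. IVL did not pass without replicate B of the untreated cells (edgeR adjusted p = 0.142), nor GRHL3 without replicate A (adjusted p = 0.0550). Members that are highly expressed in this line moved the other way or not at all: the calprotectin gene S100A8 fell from 130.2 and 169.7 CPM to 80.0 and 69.5 CPM. Its change was just past 2-fold. The log2 fold change of S100A8 was -0.79 without replicate B of the untreated cells and -0.91 without replicate B of the irradiated cells. It was -0.71 with length and GC trends removed. Its call was also lost with DESeq2 (-0.988), without a filter (-0.955), with a replicate block (-0.996) and with all 8 libraries in 1 fit (-0.996). The list of 17 thus had 3 higher and 1 lower gene and a median of -0.13, which was 0.09 without replicate B of the untreated cells. Of all genes tested 1.68% were called higher and 1.91% lower. LY6D, a surface protein of keratinocytes outside the list, went from 0.435 and 0.163 CPM to 5.54 and 4.65 CPM.

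Of 27 channel, pump and transporter genes, 3 rose, against 1.68% of all genes tested, and none fell. ABCA12, the lipid transporter of epidermal lamellar granules, went from 7.83 and 8.46 CPM to 33.8 and 50.4 CPM, or 2.37 ± 0.25 (SE, edgeR adjusted p = 0.000944). CLCA2, a regulator of chloride conductance, went from 28.9 and 24.1 CPM to 55.3 and 80.2 CPM. The zinc exporter gene SLC30A1 went from 62.5 and 48.8 CPM to 79.9 and 143 CPM and was at 0.52 on the log2 scale without replicate B of the irradiated cells and 0.84 without replicate B of the untreated cells. SLC52A1, a riboflavin transporter gene outside the list, rose from 0.559 and 0.271 CPM to 7.10 and 4.17 CPM.

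In the matrix list 2 of 33 genes rose, against 1.68% of all genes tested. COL5A1, a fibrillar collagen chain, had 1 and 0 counts before and 31 and 41 after IR, a ratio of 53.7 with a 95% exact counting interval from 9.34 to 2150. HSPG2, or perlecan, a heparan sulfate proteoglycan of basement membranes, went from 167 and 223 CPM to 326 and 463 CPM (log2 fold change 1.02) and lost its call without replicate A of the untreated cells (edgeR adjusted p = 0.152) and without replicate B of the irradiated cells (log2 fold change 0.74). The basement membrane genes COL4A1 and LAMA3 and the thrombospondin gene THBS1 passed the adjusted p alone, at 0.84, 0.75 and 0.88. SULF2, an extracellular sulfatase that edits heparan sulfate, was outside the list and went from 6.09 and 7.81 CPM to 33.4 and 34.4 CPM (2.28 ± 0.23, log2 fold change ± SE). In the cytoskeleton list ACTA2, smooth muscle actin, rose from 8.82 and 8.73 CPM to 21.9 and 21.3 CPM, and FLNC, filamin C, from 4.54 and 7.43 CPM to 15.6 and 16.02 CPM. ACTA2 had an adjusted p of 0.0511 without replicate B of the untreated cells, and FLNC one of 0.125 without replicate A (edgeR).

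Growth-factor genes went in both directions. The EGF-receptor ligand gene HBEGF fell from 17.4 and 23.0 CPM to 8.54 and 10.9 CPM, or -1.05 ± 0.25 (SE, edgeR adjusted p = 0.0331). Another ligand, TGFA, the receptor EGFR and the sheddase ADAM17 passed the adjusted p alone with log2 fold changes of 0.88, 0.91 and 0.96. These 4 values depended on single libraries. HBEGF was at -0.83 without replicate B of the untreated cells and -0.88 without replicate A of the irradiated cells, while 5 other genes of the list of 13 were called higher without that last library. The activin gene INHBA, of the TGF-beta family, passed the adjusted p at -0.99. Of 34 immediate-early and RAS-ERK feedback genes, KLF4 was called, from 12 and 17 counts to 37 and 95 (log2 fold change 1.72). It missed the threshold without 3 of the 4 libraries, with log2 fold changes from 1.51 to 1.89. Its call was also lost with DESeq2 (adjusted p = 0.0583). FOS passed the adjusted p alone at 0.83, and KLF6 and IER2 at -0.85 and -0.88.

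Of 83 inflammatory and interferon genes tested, 1 was called (1.2%, against 3.59% of all genes). None of 20 cytokine genes, of 15 NF-kappaB genes and of 15 antigen presentation genes was called by edgeR or by DESeq2, and 11 of these 50 had an unadjusted edgeR p under 0.05, against 25.4% of all genes. The cytokine genes CXCL8 and IL1A had log2 fold changes of 0.37 and 0.54 (edgeR adjusted p = 0.262 and 0.0718). OAS3, a sensor of double-stranded RNA, was the called member of 33 interferon-stimulated genes, from 24.6 and 22.6 CPM to 46.9 and 57.0 CPM (log2 fold change 1.14, edgeR adjusted p = 0.0106). It was 0.99 without replicate B of the irradiated cells, did not pass without replicate B of the untreated cells (edgeR adjusted p = 0.0769) and was 0.91 with length and GC trends removed. The peptide transporter gene TAP1 passed the adjusted p alone at 0.95. TRIM22, an antiviral ubiquitin ligase, was outside the list and rose from 25.2 and 20.4 CPM to 68.2 and 83.7 CPM.

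In metabolic and stress programmes no gene was called by edgeR or by DESeq2 among 32 of heat shock and oxidative defence, 29 of glycolysis and hypoxia, 31 of lysosome and autophagy, 18 of eicosanoid synthesis, 26 of TGF-beta and BMP signalling, 14 of the mesenchymal state, 13 of basal and luminal identity and 13 encoded in mitochondria. Of these 176 genes, 44 had an unadjusted edgeR p under 0.05, a share close to the 25.4% of all genes, with 12 of them in the TGF-beta list. In the integrated stress response list the serine synthesis gene PSAT1 was called, at 1.03 (0.96 without replicate B of the irradiated cells, and edgeR adjusted p = 0.0799 without replicate A of the untreated cells), while ATF4 and its target TRIB3 passed the adjusted p alone in the other direction, at -0.67 and -0.78. MVD, a mevalonate pathway enzyme, fell from 120.3 and 120.4 CPM to 75.2 and 44.1 CPM, a log2 fold change of -1.02. The change was -0.999 with DESeq2, -0.97 without a filter, -0.74 with length and GC trends removed and -0.68 without replicate B of the irradiated cells. IDH3A, a subunit of isocitrate dehydrogenase, was called at 1.21, was 0.89 without that library and did not pass without either untreated library (edgeR adjusted p = 0.0556 and 0.103). The calcium-binding protein gene S100P fell from 4.10 and 4.93 CPM to 2.15 and 1.87 CPM (edgeR adjusted p = 0.0480). It passed in neither refit without an untreated library, nor without replicate B of the irradiated cells. Its call was also lost with DESeq2 (adjusted p = 0.0996), with a replicate block (edgeR adjusted p = 0.0528) and with length and GC trends removed (log2 fold change -0.83).

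Of 51 cytosolic ribosomal protein genes tested, 47 had a log2 fold change below 0, with a median of -0.16 and a range from -0.59 to 0.14. None was called by edgeR or by DESeq2, and 2 had an unadjusted edgeR p under 0.05, against 25.4% of all genes. The median was -0.37 without replicate A of the irradiated cells and 0.05 without replicate B, so that single libraries set its size and sign. RPS15, the member with the smallest p-value, had 720.2 and 667 CPM before and 574 and 373 CPM after IR. Among 27 genes of ribosome biogenesis and translation none was called by edgeR or by DESeq2, 8 had an unadjusted edgeR p under 0.05, and the translation repressor gene EIF4EBP1 passed the adjusted p alone at -0.83. Outside the lists, ESF1, a nucleolar factor of pre-rRNA processing, fell from 64.7 and 53.4 CPM to 23.5 and 18.8 CPM (-1.49 ± 0.20, log2 fold change ± SE). EIF5B, which joins ribosomal subunits in initiation, fell from 240.0 and 192 CPM to 96.6 and 73.2 CPM.

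Among 37 splicing factors and RNA-binding proteins, 2 fell and none rose, while 1.91% of all genes tested were called lower. LUC7L3, a U1 snRNP-associated protein, went from 295 and 219.5 CPM to 112 and 108 CPM, or -1.22 ± 0.18 (SE, edgeR adjusted p = 0.00489). U2AF1 went from 9.13 and 9.16 CPM to 4.11 and 4.81 CPM, but near-identical copies of this gene share its reads, its level is uncertain, and it passed in neither refit without an untreated library (adjusted p = 0.126 and 0.190). The serine and arginine-rich factor SRSF11 passed the adjusted p alone at -0.97. RBM25, a regulator of alternative splicing outside the list, fell from 237 and 168 CPM to 86.0 and 78.9 CPM. LUC7L3, RBM25, ESF1 and EIF5B kept their calls in every refit without a library.

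Long non-coding RNAs (lncRNAs) made up a large part of the lower genes. Of 1379 tested, 94 (6.82%) were called lower and 17 (1.23%) higher, against 1.13% and 1.9% of 12405 protein-coding genes. The median log2 fold change was -0.38, and 70.6% of lncRNAs were below 0. The fall was not particular to lncRNAs. Lower calls made up 2.53% of 1342 pseudogenes, 6.8% of 103 genes with no GENCODE entry and 8.33% of 72 genes of remaining classes. Among 111 genes that GENCODE lists as awaiting experimental proof, 11.7% were called lower. The median log2 fold changes of these classes were, in that order, -0.11, -0.28, -0.87 and -0.69, against 0.06 for protein-coding genes. The excess of lower calls among lncRNAs over protein-coding genes was seen at different levels. Among genes under 5 CPM 6.22% of lncRNAs and 2.28% of protein-coding genes were called lower, and from 5 to 50 CPM 9.63% and 1.0%. As a share of all counts, lncRNAs took 1.65% and 1.51% of the untreated libraries and 0.947% and 0.939% of the irradiated ones. Most of that difference lay in MALAT1 and NEAT1, which together took 0.814% and 0.663% before and 0.257% and 0.212% after IR. In the same libraries counts on rRNA genes took 0.847% and 0.912% before and 1.07% and 1.11% after IR, and the part of RNA composition or capture in the lncRNA difference was not tested. With length and GC trends removed 129 lncRNAs were called lower and 33 higher, and without single libraries 40 to 182, 40 without replicate B of the untreated cells and 182 without replicate A of the irradiated cells.

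**Figure D3:**
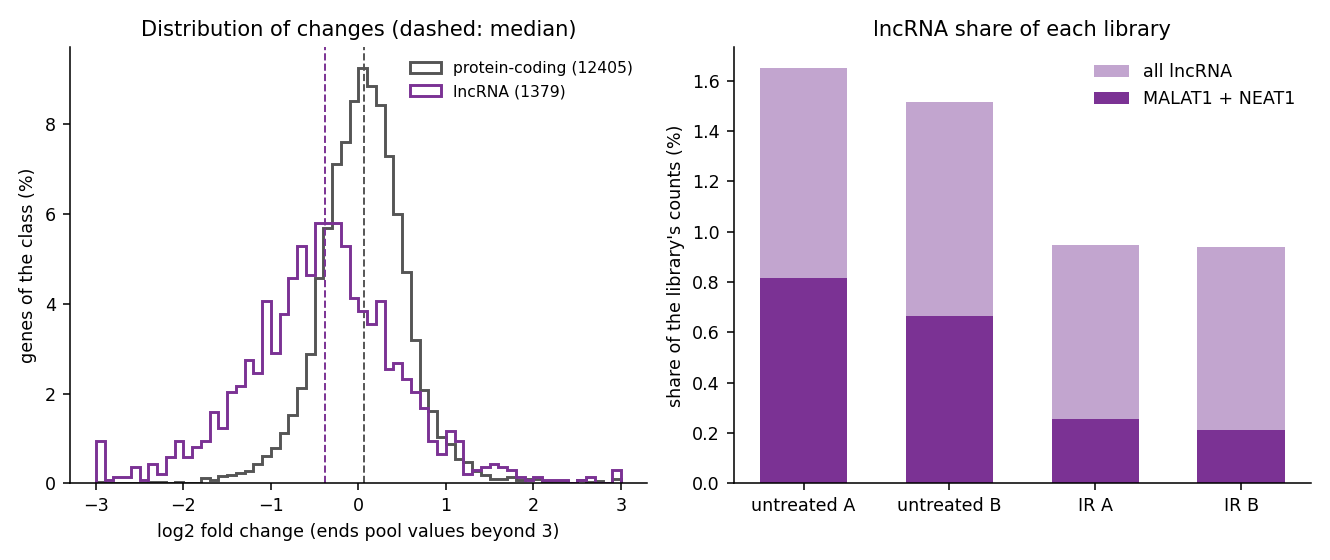
Left, distribution of log2 fold changes of 12405 protein-coding genes and 1379 lncRNAs as a percentage of each class, with dashed medians (-0.38 for lncRNAs) and end bins pooling values beyond 3. Right, percentage of each library's counts on all lncRNAs (light bar, from 0) and on MALAT1 and NEAT1 together (dark part), both lower in the 2 irradiated libraries than in the 2 untreated ones.

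MALAT1, a nuclear speckle RNA (chr11:65497640-65508073), went from 6791 and 5141 CPM to 2099 and 1532 CPM. NEAT1, the scaffold of paraspeckles, went from 1365 and 1603 CPM to 543 and 513 CPM. KCNQ1OT1, an imprinted RNA that silences its neighbours, went from 14.7 and 14.2 CPM to 3.52 and 4.52 CPM, or -1.83 ± 0.26 (SE, edgeR adjusted p = 0.00420). All 3 are retained in the nucleus. No irradiated library reached an untreated one, which the choice of these genes required. MIRLET7BHG, a host transcript of let-7 miRNAs, went from 44.9 and 59.0 CPM to 17.9 and 18.4 CPM. HMGA2-AS1 and the pseudogene RPSAP52, both antisense to HMGA2, went from 90.3 and 56.5 CPM to 25.1 and 19.7 CPM and from 53.5 and 50.7 CPM to 19.5 and 12.9 CPM. Without strand information their reads cannot be told from those of HMGA2 where exons overlap. RUSC1-AS1 fell with a log2 fold change of -1.47, FOXD2-AS1 with -1.77 and LINC01089 with -1.65. Against this trend the damage-induced lncRNAs PINCR and PURPL rose. PINCR had 1 and 2 counts before and 31 and 65 after IR, a ratio of 23.9 with an exact 95% counting interval from 7.93 to 118. PURPL had 9 and 1 counts before and 30 and 53 after IR, and did not pass without replicate B of the untreated cells (edgeR adjusted p = 0.230).

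The genes outside all lists with the smallest p-values were varied in function. GREB1, known as an oestrogen receptor target (chr2:11482341-11642788), went from 1.49 and 1.52 CPM to 15.2 and 19.1 CPM, or 3.51 ± 0.29 (SE, edgeR adjusted p = 0.000183). CYFIP2, a subunit of the actin-regulating WAVE complex, went from 18.7 and 24.2 CPM to 74.9 and 80.9 CPM. ANK1, erythrocyte ankyrin, went from 4 and 4 counts to 68 and 134, and CYGB, cytoglobin, from 15 and 12 counts to 132 and 202. Except for CYFIP2, these genes had few counts before IR. HHAT, which palmitoylates hedgehog ligands, went from 4.78 and 4.50 CPM to 16.8 and 22.0 CPM, and CEACAM1, a cell adhesion molecule of the immunoglobulin superfamily, from 2.36 and 1.90 CPM to 9.19 and 11.1 CPM. CRACDL, GASK1B and TRANK1, whose functions are less clear, had log2 fold changes of 2.60, 2.47 and 2.08. On the lower side NOXA1, the activator of the NADPH oxidase NOX1, went from 12.1 and 15.5 CPM to 3.59 and 2.97 CPM, or -2.09 ± 0.27 (SE, edgeR adjusted p = 0.00365). TNFRSF25, a death-domain receptor gene, went from 52.2 and 63.2 CPM to 22.5 and 22.8 CPM. NPIPB15 and ANKRD36C, at -2.25 and -1.74, belong to gene families of near-identical copies, so their values are uncertain.

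Some markers of other cell types were among the genes that rose. TREM2, known as a myeloid receptor (chr6:41158506-41163186), had 3 and 10 counts before and 334 and 398 after IR, or 0.186 and 0.542 CPM against 21.8 and 12.9 CPM. The leukocyte integrin gene ITGAM had 0 and 2 counts before and 16 and 23 after, the endothelial receptor gene TEK 3 and 3 and then 12 and 38, and the mural cell receptor gene PDGFRB 5 and 1 and then 17 and 53. Beyond TREM2 these calls depended on single libraries. ITGAM lost its call without replicate A of the untreated cells (log2 fold change 2.93) and TEK without any of 3 libraries (2.12 to 2.61). PDGFRB lost its call without replicate B of either group (2.20 and 2.60). ITGAM and TEK also lost theirs with all 8 libraries in 1 fit (edgeR adjusted p = 0.0578 and 0.0851) and with DESeq2, which gave them no adjusted p. The summed level of the 13 leukocyte markers was 15.7 and 21.9 CPM before and 42.1 and 30.4 CPM after IR, and most of the rise was TREM2. Before IR the larger part of that sum was CD14, with 12.2 and 19.1 CPM before and 12.0 and 12.1 CPM after. CSF1R went from 3.11 and 1.95 CPM to 7.17 and 4.78 CPM. It was not called, but passed in several alternatives, among them the removal of length and GC trends (log2 fold change 1.25). TYROBP, the signalling partner of TREM2 in myeloid cells, had no count in any library, PTPRC had at most 2, and CD68 at most 1. The 8 endothelial markers summed to 8.45 and 6.34 CPM before and 7.76 and 12.6 CPM after, and the 9 fibroblast markers to 80.3 and 73.0 CPM before and 88.2 and 109.1 CPM after, of which DCN made up the larger part in every library.

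The response was set beside that of RBM6-KO1 cells, measured in 4 libraries of their own. Of the 12, 12, 14 and 16 damage effector genes of feedback, arrest, repair and death, 4, 5, 5 and 0 rose there, and of the 51 G2/M genes 24 fell, with a median of -0.95. Of 1491 lncRNAs tested there, 76 were called lower and 9 higher, with a median of -0.41. As background, of 12389 protein-coding genes tested in RBM6-KO1 cells, 162 were called higher and 182 lower, with a median of 0.06. A test of the difference in response between genotypes over all 8 libraries called 0 of 16549 genes with edgeR, where 306 had an unadjusted p under 0.05, and DESeq2 called none of 32842, with 164 unadjusted. The difference in the number of called G2/M genes was thus not shown gene by gene. CENPF, for instance, had a log2 fold change of -1.13 in control and -2.22 in RBM6-KO1 cells (unadjusted p of the difference 0.00167 from edgeR), and TP53I3 one of 1.18 and 0.32 (unadjusted p 0.00867). Neither difference passed the adjusted p, and no other gene's did.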

How the data were processed

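Sequencing covered MCF10A-Hras control and RBM6-KO1 cells, each without treatment and 12 h after 5 Gy, with 2 libraries per group. The values deposited by the authors are whole-number counts for each Ensembl gene, not normalized, from reads mapped to hg38. Per the labels, the submitters' processing notes name STAR and DESeq2; the counting tool, annotation and strand setting are not given in the sources used here. GENCODE v44 gave symbols, positions and classes for 57392 of the 58233 genes.

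Counts of the 4 control libraries were fitted in R 4.3.3 with edgeR 4.0.16 (TMM normalization, filterByExpr, quasi-likelihood test, Benjamini-Hochberg adjustment over 15412 genes). The standard error was the size of the log2 fold change divided by the square root of F. CPM used TMM library sizes. The genotype difference was tested as an interaction over 8 libraries. The members and the 40 gene lists were chosen with earlier results of these data known. Named genes were the 3 markers, up to 4 called genes per list and direction with the smallest p (or the smallest p where none was called), and outside the lists the 12 per direction with the smallest p and the 6 with the largest folds at a mean of 5 CPM or more. Called genes named by this rule also had to have groups that do not overlap, so that separation was set by the choice. CLDN1, BIRC5, SGO2, CENPE, KIF20B, ASPM, SESN1, E2F7, RRM2B, XPC, TIGAR, ASCC3, ACER2 and the members named without a call beyond this rule were added after their values were seen. Lists were given no test.

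Alternatives were DESeq2 1.42.0 (size factors, Wald test), upper-quartile scaling, no filter, at least 10 counts in every library, glmTreat, the adjusted p alone, a replicate block, all 8 libraries, length and GC splines with 5 degrees of freedom, and each library left out, where the lone library is taken to vary as the others do. On simulated counts with 200 changed genes, 184 were recovered at a log2 change of 1.5. The changed genes were drawn only above a minimum mean count, and the simulated spread depended only on the mean level. Recovery of genes with fewer counts, with a spread of their own or with smaller changes was not tested. Limits for 0 counts and counting intervals cover counting error only. A withheld item is not reported here.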

Additional observations from a re-analysis of the deposited data

How the results depend on the processing

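With 2 libraries per group and up to 29832009 counts, changes under 2-fold and genes under 5 CPM were measured with little precision. Against 553 calls (259 higher, 294 lower), no filter gave 962 (483 and 479), the adjusted p alone 881 (433 and 448), and glmTreat against a 2-fold change 17 (17 and 0). Lower calls numbered 446 with upper-quartile scaling, 172 with DESeq2 and 195 with all 8 libraries in 1 fit. Leaving out each library gave 287 to 1406 calls, 139 to 760 higher and 148 to 646 lower, the lowest without replicate B of the untreated and the highest without replicate A of the irradiated cells; fewer residual degrees of freedom are part of these refits, and other causes were not tested. Called lncRNAs that were lower, 94 here, were 156 with upper-quartile scaling, 44 with DESeq2, 195 without a filter, 60 with at least 10 counts in every library, 58 with all 8 libraries, and 40 to 182 without single libraries. DESeq2 size factors, the replicate block and the removal of length and GC trends moved these counts by less than 1.5 times, but without length and GC trends 33 lncRNAs were higher in place of 17, 2 adhesion genes were called in place of 5 and 4 histone genes in place of 2. Every called gene that could be tested kept its direction in each alternative. Of the 149 genes examined by name, 6 lost their call with DESeq2, 12 with all 8 libraries in 1 fit, 8 with upper-quartile scaling and 7 with the replicate block. The medians of 20 of the 40 lists changed sign in at least 1 alternative, and apart from the leukocyte and endothelial lists those medians were within 0.16 of 0 on the log2 scale. Among them were the interferon list (-0.067 to 0.092 without single libraries, the lowest without replicate A of the irradiated cells), the cytoskeleton list (-0.011 to 0.17, the lowest without replicate A of the untreated cells) and the leukocyte list (-0.19 without a filter).

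The letters A and B do not mark a shared culture or day in the labels, and the A minus B deviations of the groups correlated at -0.24 across genes. With the letter as a replicate block 637 genes were called, 287 higher and 350 lower, and 521 of the 553 were among them, while 2 Notch and WNT genes were called in place of 4. Without replicate A of the irradiated cells, EGFR, TGFA, ADAM17, DSC3, DSG3, PRKDC, COL4A1, THBS1, E2F1, AURKB, EIF4EBP1 and CLSPN also passed both thresholds, with log2 sizes from 1.005 to 1.27, as did MKI67, TOP2A and SRSF11 without replicate B and KLF6 and IER2 without replicate A of the untreated cells. Of the 100 called genes named in the text or by the rule, 60 kept their call in all 4 refits without a library.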
